A study of Mus musculus with 6 samples.

Results

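The oligodendrocyte lineage and its myelin genes were examined in RNA sequencing libraries of mouse frontal cortex. The group holds 31 genes, found by their symbols among the 33000 genes of the count table, and is divided into 9 genes of precursor or newly committed cells and 22 genes of mature, myelin-forming cells. Libraries came from 3 mice homozygous for the GFAP-IL6 transgene and 3 wild-type (WT) animals, all 3 months old, and the labels name no treatment. The study's text names the C57BL/6 strain for the WT animals. In GFAP-IL6 mice the cytokine interleukin 6 is made from a transgene under the promoter of the astrocyte gene Gfap, so its source is the astrocyte and not the oligodendrocyte. Poly(A) RNA was prepared with the full-length TruSeq protocol, 1 library per sample, and the comparison asked which transcripts differed between GFAP-IL6 and WT cortex. The sex of the animals was not given in the sources used here.

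Oligodendrocytes wrap axons of the central nervous system in myelin, a stack of membrane rich in cholesterol and galactolipids that speeds conduction and feeds the axon. They arise from precursor cells that carry the growth factor receptor PDGFRA and the proteoglycan NG2, and that keep dividing in the adult cortex. The factors OLIG2 and SOX10 set the lineage, and MYRF, which SOX10 turns on, switches on the genes of compact myelin as a cell leaves the cell cycle. Cortical grey matter holds few such cells compared with the white matter below it. In bulk tissue, fewer oligodendrocytes and less RNA per oligodendrocyte cannot be told apart.

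All 31 genes were detected in every library, the lowest value being 25 counts for Enpp6 in GFAP-IL6 replicate 2, and all of them passed the filter on low counts. Library totals were 7559524 to 11072008 counts in GFAP-IL6 and 11591066 to 16877001 in WT, without overlap (n = 3 a group; exact two-sided permutation test, p = 0.1, the smallest value that 3 against 3 allows). As a check of the labels, Il6 had 0, 2 and 0 counts in the WT libraries against 12, 10 and 24 in GFAP-IL6, and Gfap was at 76.5, 123 and 84.2 counts per 1000000 (CPM) against 517, 646 and 870. Of the WT libraries, replicate 2 held more transcripts of the 10 striatal marker genes (summed level of 501 TPM, transcripts per 1000000, against 250 to 307 in the other libraries, and highest of all libraries for 9 of the 10). WT replicate 3 held more of the 9 choroid plexus marker genes (1313 TPM against 5.17 to 123, and highest for 9 of 9). Results are therefore also given without single WT libraries.

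None of the 31 genes passed an adjusted p of 0.05 in edgeR's quasi-likelihood test, against 2.86% of the 15341 genes tested. The smallest adjusted p was 0.0651, for Cspg4, which passed in 3 of the 13 alternatives. At an unadjusted p under 0.05, 2 genes were higher in GFAP-IL6 (Cspg4 and Myrf; 11.1% of all genes tested) and 0 were lower (9.37% of all genes tested; 0 also with DESeq2 and limma-voom). The count of lower genes was not stable, since 9 were lower without the filter on low counts (8% of all genes in that fit) and 14 without WT replicate 1 (12.9%). The log2 fold change, written throughout as GFAP-IL6 minus WT, was under 0 for 22 of the 31 genes (50.6% of all genes tested) with a median of -0.11, against -0.00 over all genes. The 9 precursor genes had a median of 0.06 and the 22 mature genes one of -0.15. Only Cspg4 and Cntn2 had all 3 GFAP-IL6 libraries above all 3 WT libraries (13.8% of all genes tested), and 0 members had all of them below (12.7%).

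**Figure D1:**
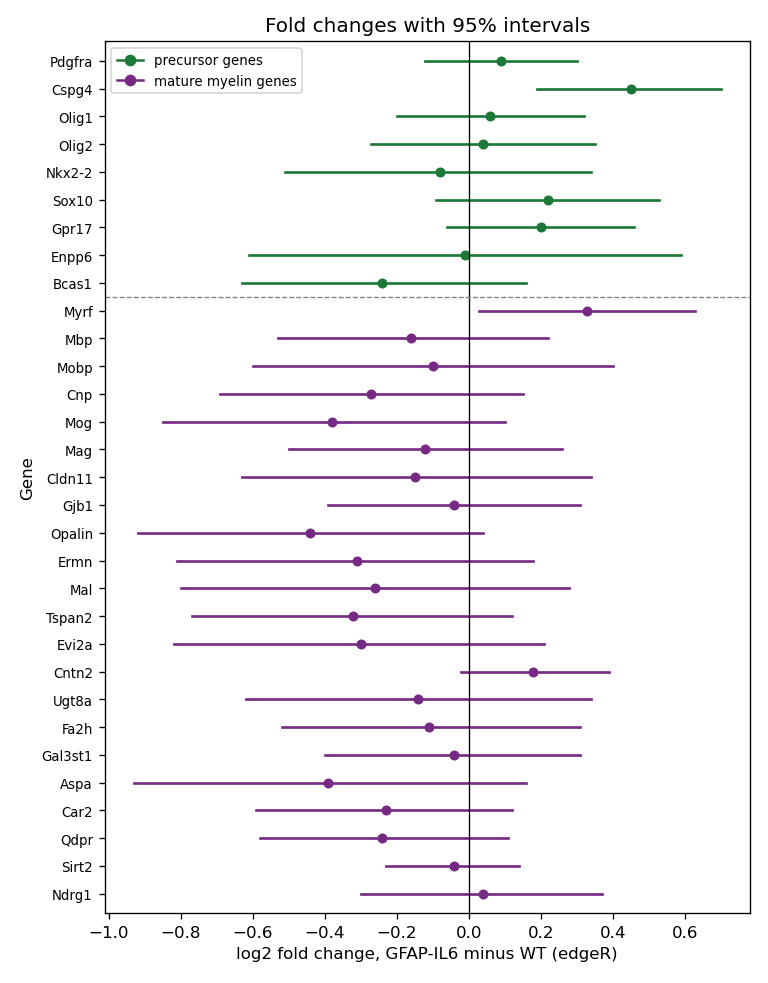
Log2 fold change of each gene (points, GFAP-IL6 minus WT) with its 95% confidence interval (lines) from the edgeR fit, for precursor genes in green and mature myelin genes in purple. The intervals of Cspg4 (0.19 to 0.70) and Myrf (0.03 to 0.63) lie above 0, and those of the other 29 genes include 0.

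Among the precursor genes, the surface proteoglycan NG2 gene Cspg4 (chr9:56865033-56899870 of GRCm38, plus strand) stood at 19.5, 16 and 17.4 CPM in WT replicates 1, 2 and 3 and at 22.2, 22.7 and 27 CPM in GFAP-IL6. Every GFAP-IL6 library was above every WT library, although the gap between the nearest of them was smaller than the range within GFAP-IL6. The log2 fold change was 0.45 ± 0.12 (SE; edgeR adjusted p of 0.0651), and it kept its sign in all 6 fits that left out 1 library (0.36 to 0.52). The call depended on the fit. Cspg4 passed the adjusted threshold in edgeR without the filter on low counts (adjusted p of 0.0157, where 5.1% of all genes passed), with the replicate number as a block (0.0485) and without WT replicate 1 (0.0282). NG2 is also made by pericytes, the contractile cells of capillaries. Of 7 pericyte markers, 6 had a log2 fold change above 0 with a median of 0.20, and 1, Rgs5, was past the adjusted threshold (0.42 ± 0.09, edgeR adjusted p of 0.0289, between 0.0542 and 0.18 without WT replicate 3 or any single GFAP-IL6 library). Their summed level was 161 to 187 TPM in WT and 219 to 240 TPM in GFAP-IL6, ranges that do not overlap, and the part of pericytes in the Cspg4 value was not tested.

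Pdgfra, the receptor that drives division of the precursors, was at 47.6, 54.9 and 58.4 CPM in WT and 56.4, 52.8 and 62.6 CPM in GFAP-IL6. The groups overlapped, and the log2 fold change of 0.09 had a 95% interval of -0.12 to 0.30, one of the narrower intervals of the group. Fibroblasts of the meninges also make Pdgfra. The 5 fibroblast markers summed to 17.5 to 35.7 TPM in WT and 20.2 to 44.0 TPM in GFAP-IL6, without separating the groups. Cspg4 and Pdgfra, the pair of genes by which precursors are usually recognised, thus had fold changes of 1.37 and 1.07.

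The 4 transcription factors of the lineage had intervals that included 0. Sox10, which acts in precursors and in mature cells, was at 27, 30.4 and 31.5 CPM in WT and 34.4, 26.1 and 42.6 CPM in GFAP-IL6. GFAP-IL6 replicates 1 and 3 were above every WT library and replicate 2 was below every one. Its log2 fold change was 0.22 with an interval of -0.09 to 0.53. Olig2, needed to form the lineage, and its neighbour Olig1 had log2 fold changes of 0.04 ± 0.14 and 0.06 ± 0.12. Nkx2-2, a homeodomain factor of cells about to differentiate, was the least abundant of the 4 factors (4.55 ± 0.32 TPM in WT and 4.50 ± 0.482 TPM in GFAP-IL6; SD, n = 3) and had a log2 fold change of -0.08 ± 0.20.

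Genes of cells that have just left the precursor state also stayed within the spread of the libraries. Gpr17, a receptor present only for a short time before myelination, was at 45.7, 57.3 and 53.0 CPM in WT and 58.6, 50.6 and 70.1 CPM in GFAP-IL6. The groups overlapped, and the log2 fold change was 0.20 with an interval of -0.06 to 0.46. Of its exon bases, 3.62% are shared with Lims2 on the opposite strand, and the strand setting of the counting was not given in the sources used here. Lims2 itself had a log2 fold change of 0.49 ± 0.15 (edgeR adjusted p of 0.112, but 0.0272 without the filter on low counts, and 0.00792 with a value of 0.68 without WT replicate 2). Enpp6, a choline phosphodiesterase of newly forming oligodendrocytes, had the widest interval of the 31 genes (-0.61 to 0.59 around -0.01). Bcas1, an early myelin protein and the most abundant precursor gene of WT cortex (143 ± 37.7 TPM; SD, n = 3), was at 110, 200 and 171 CPM in WT and 136, 113 and 160 CPM in GFAP-IL6. WT replicate 1 was the lowest library and WT replicate 2 the highest, so that both extremes fell in the same group. The Bcas1 log2 fold change was -0.24 ± 0.18. Bcas1, Nkx2-2 and Olig1 share 11.7%, 9.67% and 7.26% of their exon bases with a gene on the opposite strand.

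Promoters of members of both classes were searched for the letters of SOX sites, MYRF sites and E-boxes (bound by OLIG proteins among others). RefSeq promoters (GRCm38.p6) were found for 21 of the 31 genes, 29 start sites in all, some of them overlapping. The 250 bases before the start site were read on either strand. ACAAAG was present in 8 of these promoters, or 27.6% (16.5% of all 32851), and ACAATG in 7, or 24.1% (10.7%). CTGGCAC was present in 3, or 10.3% (4.19%), all of Cnp and Mag, and CTGGTAC in 1, or 3.45% (1.83%). The CTGGCAC and ACAAAG sites of Mag and the ACAATG site of Gal3st1 were each counted from more than 1 start site. The E-box CATCTG was present in 6, or 20.7% (14.4%), and CAGCTG in 1, or 3.45% (13%). None of these letter strings contains another, and a match describes the letters only. The windows below are examples from mature genes, and other members with matches, such as Mobp, Tspan2 and Ermn, are not shown. Whether the matches go with the levels of the genes was not tested. Capitals mark the match, and each line is read in the direction of transcription. The 2 Cnp windows hold a SOX match 167 bases and a MYRF match 81 bases before the start site. Those of Mag (MYRF), Mog (MYRF, read on the other strand) and Opalin (SOX) lie 68, 83 and 139 bases before it.
Cnp, chr11:100574745-100574804, plus strand: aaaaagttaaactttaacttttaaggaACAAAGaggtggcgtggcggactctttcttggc
Cnp, chr11:100574831-100574890, plus strand: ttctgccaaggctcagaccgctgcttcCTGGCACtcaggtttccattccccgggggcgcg
Mag, chr7:30914899-30914958, minus strand: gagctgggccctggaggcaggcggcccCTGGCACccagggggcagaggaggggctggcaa
Mog, chr17:37023449-37023508, minus strand: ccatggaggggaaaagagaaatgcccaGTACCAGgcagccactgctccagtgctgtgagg
Opalin, chr19:41077220-41077279, minus strand: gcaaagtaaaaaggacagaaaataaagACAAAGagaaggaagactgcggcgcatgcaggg

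Myrf, the factor that switches on myelin genes (chr19:10208272-10240748, minus strand), was at 40.6, 44.1 and 44.9 CPM in WT and at 54.2, 41.3 and 67.4 CPM in GFAP-IL6. GFAP-IL6 replicates 1 and 3 were above every WT library and replicate 2 fell among them. The log2 fold change was 0.33 ± 0.14 (edgeR unadjusted p of 0.0314, adjusted p of 0.202), the only mature gene at an unadjusted p under 0.05. Without GFAP-IL6 replicate 3 it was 0.16 (edgeR unadjusted p of 0.234) and without replicate 2 it was 0.49. The unadjusted p also exceeded 0.05 without WT replicate 1 (0.0715) or GFAP-IL6 replicate 1 (0.0673). The variation of Myrf between libraries was low in WT (coefficient of variation of 5.32%) and higher in GFAP-IL6 (24%).

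The 3 structural genes of compact and non-compact myelin had log2 fold changes of -0.27 to -0.10. Mbp, encoding the protein that holds the cytoplasmic faces of myelin together, was the most abundant of the 31 genes (776 ± 170 TPM in WT and 735 ± 149 TPM in GFAP-IL6; SD, n = 3). It was at 1638, 2649 and 2501 CPM in WT and 2064, 1606 and 2423 CPM in GFAP-IL6, with the lowest libraries of the groups at nearly the same level. The log2 fold change was -0.16, with an interval of -0.53 to 0.22. Cnp, a phosphodiesterase that keeps cytoplasmic channels open in myelin, was at 222, 393 and 370 CPM in WT and 271, 210 and 334 CPM in GFAP-IL6. WT replicates 2 and 3 were above every GFAP-IL6 library, and WT replicate 1 was below all but GFAP-IL6 replicate 2. The Cnp log2 fold change was -0.27 ± 0.19. Mobp, a small basic myelin protein, had a log2 fold change of -0.10 ± 0.23 and, at 379 CPM, its highest library in WT replicate 3.

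On the myelin surface, Mog, the outermost myelin glycoprotein and a known autoantigen, was at 44.9, 92.0 and 82.4 CPM in WT and 57.9, 42.5 and 68.8 CPM in GFAP-IL6. Replicates 2 and 3 of WT were the highest libraries, while replicate 1 of WT lay next to the lowest GFAP-IL6 library, and the log2 fold change was -0.38 with an interval of -0.85 to 0.10. Mag, which binds myelin to the axon, had a log2 fold change of -0.12 ± 0.18. Cntn2, a contactin at the edge of the node of Ranvier (chr1:132509427-132543256, minus strand), was at 160, 140 and 162 CPM in WT and 168, 164 and 194 CPM in GFAP-IL6. The groups did not overlap, with 162 and 164 CPM as the nearest pair, and the log2 fold change was 0.18 ± 0.09 (edgeR adjusted p of 0.279). Within WT, Cntn2 did not share the library order of the other mature genes, replicate 2 being its lowest library. Within GFAP-IL6, Cntn2 had replicate 2 lowest and replicate 3 highest, the order of most other mature genes. It is also made by some neurons, whose 6 cortical markers summed to 1314 to 1657 TPM in WT and 1471 to 1626 TPM in GFAP-IL6.

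Among membrane and cytoskeletal proteins of myelin, all 5 genes had negative log2 fold changes, from -0.44 to -0.26. Opalin, a glycoprotein of oligodendrocytes in the central nervous system, had the lowest value of the 31 genes. It was at 18.2, 33.3 and 31.3 CPM in WT and 23.7, 13.9 and 23.4 CPM in GFAP-IL6. Its WT replicate 1 was below GFAP-IL6 replicates 1 and 3. The log2 fold change of Opalin was -0.44 with an interval of -0.92 to 0.04 (edgeR adjusted p of 0.278). Tspan2, a tetraspanin, was at 98.9, 197 and 192 CPM in WT and 137, 108 and 146 CPM in GFAP-IL6, so that WT held the lowest library as well as the highest pair. Ermn, an actin-binding protein of the outer myelin loop, was at 47.8, 98.1 and 72.2 CPM in WT and 60, 41.5 and 74.1 CPM in GFAP-IL6. The log2 fold changes of Tspan2, Ermn, Mal (a raft protein that carries myelin cargo) and Evi2a were -0.32, -0.31, -0.26 and -0.30, with SE of 0.20 to 0.25. Evi2a shares 19.2% of its exon bases with Evi2 on the same strand, so its counts are uncertain.

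The junction genes Cldn11, the tight junction claudin of myelin, and Gjb1, a gap junction connexin, had log2 fold changes of -0.15 and -0.04. The 3 enzymes of myelin galactolipids had values of -0.14 to -0.04. They were Ugt8a, which makes galactosylceramide, Fa2h, which hydroxylates its fatty acid, and Gal3st1, which adds the sulphate of sulphatide. Among the 4 metabolic enzymes, Aspa, which releases acetate from N-acetylaspartate, was at 14.8, 30.6 and 20.0 CPM in WT and 20.1, 10.6 and 19.2 CPM in GFAP-IL6. Its highest library was 2.90-fold above its lowest, the widest range of the 31 genes, and the log2 fold change was -0.39 ± 0.25. Car2, a carbonic anhydrase, was at 142, 217 and 158 CPM in WT and 152, 114 and 174 CPM in GFAP-IL6. Qdpr, which recycles tetrahydrobiopterin, was at 139, 229 and 164 CPM in WT and 154, 126 and 172 CPM in GFAP-IL6. In both genes WT replicate 2 was the highest library and GFAP-IL6 replicate 2 the lowest, and the groups overlapped. Their log2 fold changes were -0.23 ± 0.16 and -0.24 ± 0.16, and 18.6% of Qdpr's exon bases are shared with Gm42413 on the opposite strand. Sirt2, a deacetylase also made by other brain cells, had the narrowest range (1.16-fold between its highest and lowest library) and a log2 fold change of -0.04 with an interval of -0.23 to 0.14. Ndrg1, a stress and trafficking protein of myelinating cells, had a value of 0.04 ± 0.15.

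The mature genes differed between libraries of the same group and mostly shared 1 order of libraries. Within WT, replicate 1 was the lowest library for 21 of the 22 mature genes, all but Cntn2, where 37.4% of all genes tested had it lowest. Within GFAP-IL6, replicate 2 was the lowest for 22 of 22 (33.6% of all genes) and replicate 3 the highest for 20 of 22 (36.4%). WT replicate 2 was the highest of its group for 16 of 22 (41.5%). The median log2 difference from WT replicate 1 to WT replicate 2 was 0.70 over the mature genes, with 21 of 22 higher, and that from GFAP-IL6 replicate 2 to replicate 3 was 0.65, with 22 of 22 higher. Among medians between libraries of the same group these are the largest, and the smallest was -0.09 (WT replicate 2 to 3). The fitted median between genotypes of -0.15 compares groups and not single libraries, so it is an unlike measure. Single libraries of different genotypes differed by medians of -0.84 (WT replicate 2 to GFAP-IL6 replicate 2) to 0.58 (WT replicate 1 to GFAP-IL6 replicate 3). Between the lowest library of each group, WT replicate 1 and GFAP-IL6 replicate 2, the median was -0.06, and 8 of 22 genes were higher in the latter. The members lie in the same cells of the same libraries, so their common order is 1 observation per library and not 22.

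**Figure D2:**
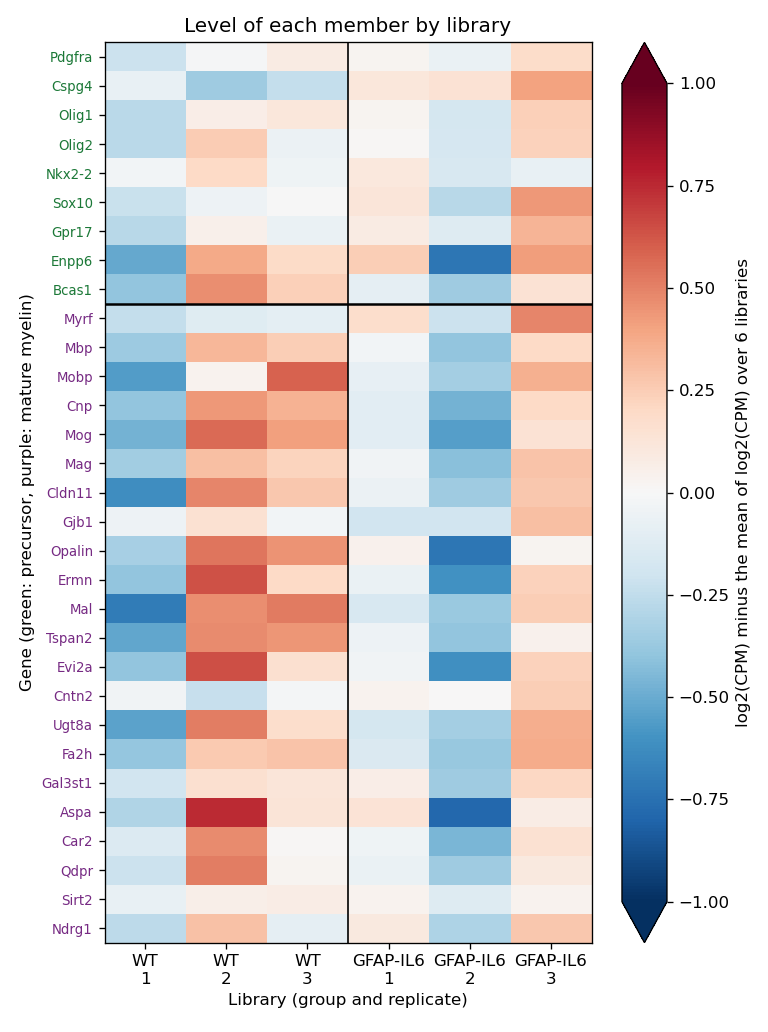
Level of each of the 31 genes in each library, as log2 CPM minus that gene's mean log2 CPM over the 6 libraries (colour, red above and blue below the mean), with precursor genes above the horizontal line and the WT libraries left of the vertical line. The mature genes are mostly blue in WT replicate 1 and GFAP-IL6 replicate 2 and red in WT replicates 2 and 3 and GFAP-IL6 replicate 3, while Sirt2 and Cntn2 are pale.

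Among the precursor genes, WT replicate 1 was lowest of its group for 7 of 9, GFAP-IL6 replicate 2 for 8 of 9, and GFAP-IL6 replicate 3 highest for 8 of 9. The median differences were 0.33 from WT replicate 1 to replicate 2 and 0.42 from GFAP-IL6 replicate 2 to replicate 3. The median coefficient of variation was 27.1% in WT and 22.4% in GFAP-IL6 over the mature genes and 11.3% and 14.5% over the precursor genes. Over the 12539 genes at least as abundant as the lowest member (a mean of 4.01 CPM) it was 9.24% and 6.91%. The spread sets what the comparison could resolve, with a median SE of the log2 fold change of 0.19 for mature genes, 0.14 for precursor genes and 0.11 for those 12539 genes.

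Summed per length, the 9 precursor genes reached 310, 420 and 404 TPM in WT and 397, 330 and 457 TPM in GFAP-IL6 (378 ± 59.5 and 395 ± 63.7; SD, n = 3). The 22 mature genes reached 2541, 3995 and 3781 TPM in WT and 3251, 2538 and 3819 TPM in GFAP-IL6 (3439 ± 785 and 3203 ± 642). In both sums the groups overlapped over most of their range. The ratio of mature to precursor transcripts removes only what moves both classes by the same factor. From WT replicate 1 to replicate 2, the median log2 difference was 0.70 over the mature genes and 0.33 over the precursor genes. Bcas1, an early myelin protein, and Olig1 made the largest parts of the WT precursor sum (means of 143 and 118 TPM). The ratio was 8.2, 9.52 and 9.35 in WT and 8.2, 7.69 and 8.35 in GFAP-IL6. WT replicates 2 and 3 lay above all GFAP-IL6 libraries and WT replicate 1 among them. The mean ratio was 9.02 ± 0.718 in WT and 8.08 ± 0.346 in GFAP-IL6, a quotient of 0.896, or 0.821 when Mbp and Bcas1, the most abundant gene of each class, were left out. No test was made of these sums.

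**Figure D3:**
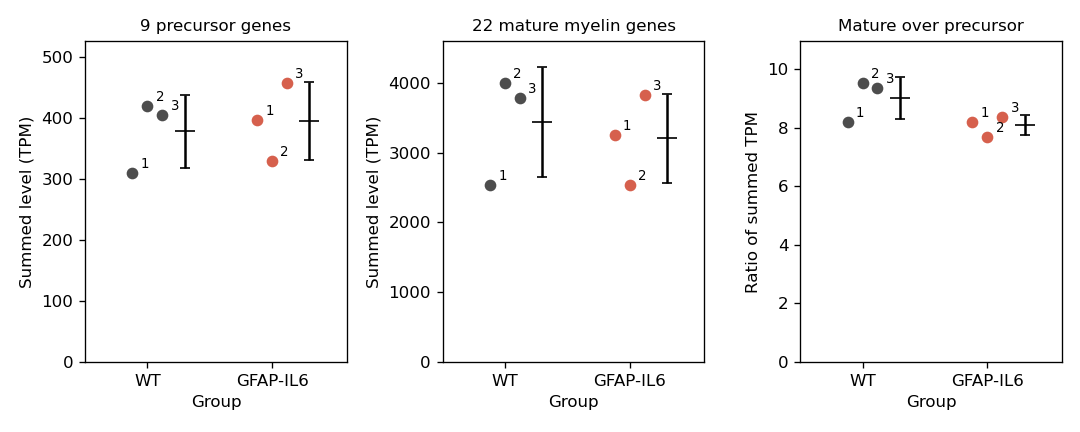
Summed TPM of the 9 precursor genes and of the 22 mature myelin genes, and the ratio of the second sum to the first, in each library (points with replicate numbers; bars give the mean ± SD, n = 3). The groups overlap in all 3 panels. WT replicate 1 and GFAP-IL6 replicate 2 hold the lowest mature sums, at 2541 and 2538 TPM.

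The values of the mature genes depended on which library was left out. Without WT replicate 1, the mature median moved from -0.15 to -0.36 and that of the precursor genes from 0.06 to -0.05. In that fit 14 members, 13 mature genes and Bcas1, were lower at an unadjusted p under 0.05 (12.9% of the 15524 genes then tested). Lower at an adjusted p of 0.05 in edgeR were 4 of them (2.38% of all genes), namely Tspan2 (log2 fold change of -0.57 ± 0.11, adjusted p of 0.014), Mog (-0.62 ± 0.14, 0.0280), Mal (-0.56 ± 0.14, 0.0336) and Opalin (-0.65 ± 0.17, 0.0397). The precursor gene Cspg4 was then past it in the other direction (0.52 ± 0.12, edgeR adjusted p of 0.0282; 4.46% of all genes were higher). No member was past an adjusted p of 0.05 in any of the other 5 fits that left out a library. Without GFAP-IL6 replicate 3 the mature median was -0.34. Without WT replicate 2, the library with the most striatal transcripts, it was -0.02, with 8 of 22 genes above 0. Without WT replicate 3, the library with the most choroid plexus transcripts, it was -0.07, and without GFAP-IL6 replicate 2 it was -0.01. The 3 libraries with the highest mature sums, WT replicates 2 and 3 and GFAP-IL6 replicate 3, held 501, 258 and 250 TPM of striatal markers and 30.8, 1313 and 7.64 TPM of choroid plexus markers. The part of striatal or choroid plexus tissue in these values was not tested.

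**Figure D4:**
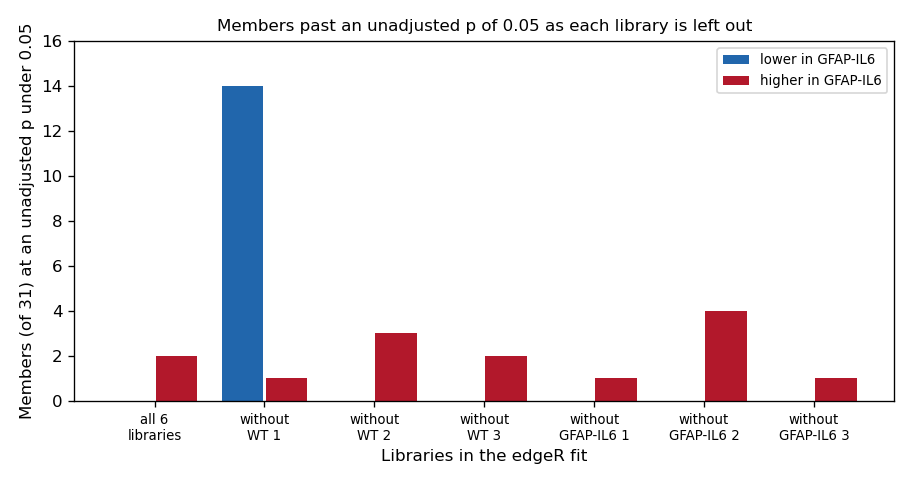
Number of the 31 genes at an unadjusted edgeR p under 0.05, lower (blue) or higher (red) in GFAP-IL6, in the fit with all 6 libraries and with each library left out. Among the fits plotted, lower genes appear without WT replicate 1, where there are 14, and in each of the others there are 0.

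Further genes of the lineage were counted as separate lists. Of 34 other genes of mature oligodendrocytes, 0 were past an adjusted p of 0.05, 1 was higher and 1 lower at an unadjusted p under 0.05, and the median log2 fold change was -0.07. The higher gene was Apod, an apolipoprotein also made outside the lineage, at 78.4, 138 and 110 CPM in WT and 138, 135 and 214 CPM in GFAP-IL6 (0.57 ± 0.20, edgeR adjusted p of 0.14). Apod passed the adjusted threshold without WT replicate 2 (0.78, edgeR adjusted p of 0.0146) and without the filter on low counts (0.000858), and was at 0.33 without GFAP-IL6 replicate 3. The lower gene was Enpp2, which is also strongly made by the choroid plexus, at 253, 317 and 605 CPM in WT and 265, 289 and 268 CPM in GFAP-IL6, with the high value in WT replicate 3. For 30 of the 34 genes WT replicate 1 was the lowest of its group, and for 29 GFAP-IL6 replicate 2.

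Of 13 other precursor genes, 0 were past the adjusted threshold, 2 were higher and 1 lower at an unadjusted p, and the median was 0.04. The smallest p was that of Tnr, an extracellular matrix protein, at 229, 199 and 238 CPM in WT and 261, 270 and 274 CPM in GFAP-IL6 (0.27 ± 0.08, edgeR adjusted p of 0.111). Of 9 other genes of newly formed oligodendrocytes, 8 could be tested, 0 passed and 1, Lims2, was higher at an unadjusted p (median -0.08), Casr having at most 6 counts in a library. Of 9 genes supplying sphingolipids and fatty acids, 0 passed and 1 was higher and 1 lower at an unadjusted p (median -0.05). The smallest p was that of Degs1, the desaturase that completes ceramide, with 61.8, 88.2 and 73.5 CPM in WT against 58.5, 59.4 and 60.4 CPM in GFAP-IL6 (-0.33 ± 0.11, edgeR adjusted p of 0.14).

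Among 16 growth signals and brakes on differentiation, 1 gene passed, 2 were higher and 2 lower at an unadjusted p, and the median was -0.07. Notch1, a receptor that holds precursors back from differentiating and that astrocytes and endothelial cells also make, was at 26.8, 21.7 and 27.4 CPM in WT and 35.2, 33.5 and 44.0 CPM in GFAP-IL6. The lowest transgenic library exceeded the highest WT library, and Notch1 rose by 0.58 ± 0.12 on the log2 scale (edgeR adjusted p of 0.0252, but 0.0629 without GFAP-IL6 replicate 1 and 0.185 without replicate 3). Its effectors in the list, Hes1 and Hes5, had values of -0.29 ± 0.20 and 0.07 ± 0.22. Of 10 axonal partners of myelin at the node, 0 passed and 2 were higher at an unadjusted p (median 0.02). Nfasc, the neurofascin made by both axon and oligodendrocyte, had the smallest p (0.28 ± 0.11, edgeR adjusted p of 0.185).

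Markers of other cells were read beside these values. Of 6 microglial markers 5 were higher at an adjusted p of 0.05 (median 0.77; summed 417 to 501 TPM in WT and 864 to 998 TPM in GFAP-IL6), and of 6 astrocyte markers 1, Gfap, was (2.84 ± 0.20, edgeR adjusted p of 5.49e-06; summed 1488 to 1841 and 2036 to 2537 TPM). Neither sum overlapped between the groups. The astrocyte median was 0.09, with 2 of the 6 markers under 0. The astrocyte sum includes Gfap, so the gap between its groups does not describe the other astrocyte markers. Gfap alone was at 53.6, 81.2 and 57.5 TPM in WT and 375, 459 and 621 TPM in GFAP-IL6. The part of the microglial and Gfap differences in the members' values was not tested. Medians over 5 blood, 5 fibroblast, 6 cortical neuron, 10 striatal and 4 choroid plexus genes tested were -0.16, 0.15, 0.03, -0.46 and -1.89, with 0 genes past the adjusted threshold. Of 5 Schwann cell genes, which would mark peripheral myelin, 3 were tested and 0 passed.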

How the data were processed

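Raw gene counts of 6 TruSeq libraries were used as deposited. Per the labels and the study's methods, the authors aligned reads with STAR 2.4 to the mouse genome and counted them per gene with featureCounts, without normalization. The build named in the labels does not suit mouse gene identifiers, the study's methods name mm10, and positions here come from GENCODE M21 (GRCm38). Counts were tested with edgeR 4.0.16 (quasi-likelihood F-test, TMM scaling, filterByExpr, group as the only term, Benjamini-Hochberg adjustment over 15341 genes) in R 4.3.3. CPM are TMM-scaled. TPM use the gene lengths in the table. DESeq2 1.42.0, limma-voom (limma 3.58.1), RLE and upper quartile scaling, no filter, counts thinned to 7559524 per library, a replicate block and each library left out were alternatives. The edgeR step was tested on simulated counts. Libraries differed by more than sampling noise (chi-square per degree of freedom of 2.23 to 20.1). The study describes 3 mice per group, as analysed here, while the series' design text speaks of 4 replicates, and the p-values measure the spread between these libraries. All 31 genes were named. Values per library are given for the members with the smallest p in each class (5 precursor, 10 mature), for the most abundant of each class and for any past the adjusted threshold. Other lists are given as counts with the gene of smallest p or those past the threshold. Hes1, Hes5, Lims2 and Enpp2 were named after their values were seen. The members, the 15 other lists (150 genes) and the rule were chosen with earlier results of these data known. Some items are not reported here.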

Additional observations from a re-analysis of the deposited data

How the results depend on the processing

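With DESeq2, limma-voom, RLE or upper quartile scaling, 0 members were past an adjusted p of 0.05, 2 were higher and 0 lower at an unadjusted p under 0.05, and the mature median lay between -0.15 and -0.13. Without the filter on low counts 1 member (Cspg4, adjusted p of 0.0157) was past the adjusted threshold and 9 were lower at an unadjusted p (8% of all genes in that fit), and over all genes 1154 were past it in place of 439. After thinning, 1 member had non-overlapping groups in the lower direction, and the share over all genes in the thinned data is not given here. In the main data 0 members and 12.7% of all genes tested had such groups, so this count is no sign of an excess. Enpp6 had a log2 fold change of 0.29 after thinning. Same-numbered samples of the groups deviated together only weakly (r of 0.0147 to 0.0996), so the numbers were not taken as pairs. The highest value, for replicate 1, was just under the threshold of 0.1 used for pairing. Differently numbered samples had r of -0.077 to 0.0524. The deviations of WT replicate 2 correlated most with those of GFAP-IL6 replicate 3, also weakly (r of 0.0524). In counts, that pair had the highest chi-square per degree of freedom (20.1). The replicate block gave 1 member past the threshold (Cspg4, 0.44, edgeR adjusted p of 0.0485), 750 genes in all and 0.00 for Enpp6. Without the most abundant member of each class the quotient of the mature to precursor ratios was 0.821. Leaving out each library in turn gave 0 to 5 members past the adjusted threshold (187 to 1061 genes in all, the highest without WT replicate 1), 0 to 14 lower and 1 to 4 higher at an unadjusted p, mature medians of -0.36 to -0.01 and precursor medians of -0.05 to 0.17. Log2 fold changes then crossed 0 for Enpp6 (-0.20 to 0.24), Olig1 (-0.05 to 0.15), Olig2 (-0.06 to 0.19), Nkx2-2 (-0.17 to 0.00), Ndrg1 (-0.09 to 0.22), Mag (-0.30 to 0.04), Cldn11 (-0.40 to 0.08), Gjb1 (-0.22 to 0.05), Ugt8a (-0.37 to 0.10), Gal3st1 (-0.16 to 0.09), Mobp (-0.34 to 0.23), Fa2h (-0.34 to 0.03) and Sirt2 (-0.09 to 0.01). The cause of these moves was not tested. With 3 libraries a group and the spread given, the intervals of most mature genes leave room for differences in either direction.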
